A study of Mus musculus with 2 samples.

Results

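The nuclear genes of the mitochondrial respiratory chain and ATP synthase were examined in ATAC-seq data from adult mouse retina. They were taken by gene symbol alone, from the families named Ndufa, Ndufb, Ndufc, Ndufs and Ndufv (complex I), Uqcr (complex III), Cox4i, Cox5, Cox6, Cox7 and Cox8 (complex IV) and Atp5 (complex V), without the Ndufaf assembly factors. This gave 84 of the 21887 protein-coding genes placed on the nuclear chromosomes in a RefSeq gene table of GRCm38: 41 of complex I, 8 of complex III, 18 of complex IV and 17 of complex V.

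ATAC-seq uses the Tn5 transposase to insert sequencing adapters into accessible DNA, so the number of insertions in a window is a measure of how open it was. There was 1 library from neural retina of an adult wild-type C57BL/6 mouse and 1 from an adult C57BL/6 Gabra3 knockout littermate. Gabra3 is the X-linked gene of a GABA-A receptor subunit. The sources used here do not state how the allele was made, the age in weeks or the sex. Each library came from 20000 nuclei of whole frozen tissue, so more cells of a type and more open chromatin per cell cannot be told apart. With 1 library per genotype there is no replicate check and no test between genotypes, and every ratio compares the libraries. Intervals are exact 95% intervals (Clopper-Pearson) that cover counting error only.

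The respiratory chain passes electrons from NADH and succinate through complexes I, II and III and cytochrome c to oxygen at complex IV. The proton gradient this builds drives ATP synthase, also called complex V. A few core subunits are encoded in mitochondrial DNA and all others by nuclear genes spread over the chromosomes. Photoreceptors make up most of the cells in mouse retina, pack mitochondria into their inner segments and are known for high oxygen use. NRF1, the ETS factor GABP and YY1 are the textbook DNA-binding factors of respiratory gene promoters, and several complex IV subunits have separate isoform genes for heart and muscle, lung or testis.

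The files held 9170838 wild-type and 9038110 knockout reads, which left 7635799 and 7646373 insertions after filtering. Gabra3 itself held 126 insertions over its body in the wild-type library and 121 in the other (log2 ratio -0.06, -0.43 to 0.31, scaled to all autosomal insertions), so this count gives no check of the genotype. Single exons of Gabra3 were not examined. All 8 rod markers examined had at least 20 promoter insertions, with 157 and 137 at Gnat1, the gene of rod transducin alpha. The 4 markers of retinal pigment epithelium held 12 and 11 insertions in all, the 4 of microglia 18 and 16, and the 4 vascular ones 20 and 24, and none of these lists had a gene with 20. The rod markers had medians of 87 and 87.5, and the lists of other retinal cells had lower medians. Single markers overlapped, with 111 and 100 at Glul of Muller glia and 97 and 111 at Prkca of bipolar cells. The rod genes Sag (19 and 9) and Nr2e3 (21 and 13) were low at the gene end. At their RefSeq starts they held 204 and 196, and 90 and 87. The medians of the other lists were 14 and 16 for cones, 13 and 12 for bipolar, 9.5 and 10.5 for amacrine and 13.5 and 9.5 for horizontal cells. Ganglion cells gave 8 and 8 and Muller glia 21.5 and 19. A low count therefore does not show that a cell type was absent.

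Promoter sequences are shown first because the members share a function but not 1 set of promoter motifs. The RefSeq promoter table of GRCm38.p6, which gives 250 bases before and 50 after an annotated start, matched 68 of the 84 genes by gene identifier. Of those to be shown, Cox4i1, Cox4i2, Cox6a2, Cox8c and Uqcrq had no entry. The motifs searched on both strands were NRF1 (GCGC, any base, then TGCGC), ETS (CCGGAAG, bound by GABP), YY1 (AAGATGG), the GC box GGGCGG bound by SP factors, the CCAAT box and the TATA box TATAAA. Only exact matches to these letters were counted, so a promoter without a match can still hold a related site with other letters. No ETS match overlapped a YY1 match. Capitals mark every match to any of these, and all sequences run 5′ to 3′ on the strand of the gene. A match describes the letters and is not evidence of binding. The first set is the open promoters of Cox8a, Cox6a1 and Cox7b, isoforms used in most tissues, with the nearly closed ones of Cox8b, the heart and muscle isoform, and Cox7b2, the testis isoform.
Cox8a, chr19:7217567-7217866, minus strand: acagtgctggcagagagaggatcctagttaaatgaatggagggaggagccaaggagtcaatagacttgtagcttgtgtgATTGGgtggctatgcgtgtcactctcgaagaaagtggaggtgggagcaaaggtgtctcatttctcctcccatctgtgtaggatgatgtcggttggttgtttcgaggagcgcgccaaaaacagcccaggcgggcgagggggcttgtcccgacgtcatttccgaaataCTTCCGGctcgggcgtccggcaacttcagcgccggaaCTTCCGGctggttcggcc
Cox8b, chr7:140900397-140900696, minus strand: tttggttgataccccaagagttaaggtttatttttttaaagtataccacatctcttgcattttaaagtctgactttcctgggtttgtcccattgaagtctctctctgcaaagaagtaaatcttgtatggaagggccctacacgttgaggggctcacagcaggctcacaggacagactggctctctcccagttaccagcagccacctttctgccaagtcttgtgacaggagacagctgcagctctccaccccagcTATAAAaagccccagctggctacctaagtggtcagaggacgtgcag
Cox7b, chrX:106015450-106015749, plus strand: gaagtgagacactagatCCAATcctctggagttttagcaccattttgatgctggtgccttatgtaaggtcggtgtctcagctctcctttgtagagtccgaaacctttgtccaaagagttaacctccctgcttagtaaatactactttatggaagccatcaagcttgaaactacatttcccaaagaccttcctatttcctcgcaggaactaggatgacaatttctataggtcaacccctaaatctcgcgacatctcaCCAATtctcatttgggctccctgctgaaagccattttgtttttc
Cox7b2, chr5:71548156-71548455, minus strand: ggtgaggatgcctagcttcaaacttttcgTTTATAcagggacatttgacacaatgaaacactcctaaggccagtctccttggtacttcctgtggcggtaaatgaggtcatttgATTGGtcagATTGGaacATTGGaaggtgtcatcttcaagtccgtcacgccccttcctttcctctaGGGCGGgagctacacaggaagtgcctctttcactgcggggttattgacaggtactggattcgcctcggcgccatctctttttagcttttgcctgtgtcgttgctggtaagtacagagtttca
Cox6a1, chr5:115348909-115349208, minus strand: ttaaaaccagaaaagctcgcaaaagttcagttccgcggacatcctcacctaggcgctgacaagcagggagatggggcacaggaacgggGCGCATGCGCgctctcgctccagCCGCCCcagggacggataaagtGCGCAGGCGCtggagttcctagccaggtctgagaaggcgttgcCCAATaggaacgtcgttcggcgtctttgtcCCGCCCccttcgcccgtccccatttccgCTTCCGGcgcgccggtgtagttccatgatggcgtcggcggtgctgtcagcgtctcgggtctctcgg
Cox8a held 2 ETS motifs and 1 CCAAT, and Cox8b held a TATA motif and 2 CpG dinucleotides, against 19 in Cox8a. Cox6a1 held 2 NRF1 motifs, 1 ETS, 2 SP and 1 CCAAT. Cox7b, on the X chromosome, was open with 5 CpG dinucleotides, 2 CCAAT boxes and no NRF1, ETS or YY1 motif, and Cox7b2 held 10 CpG dinucleotides and more of the motifs (1 SP, 3 CCAAT, 1 TATA).

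The second set is the promoters with most insertions in complexes I, IV and V. Ndufb5 and Cox5b held no exact match to any of the 6 motifs, so no letters are in capitals. Atp5g1, a gene of the c ring that turns in ATP synthase, held 5 CCAAT boxes and no exact match to the other motifs.
Ndufb5, chr3:32736813-32737112, plus strand: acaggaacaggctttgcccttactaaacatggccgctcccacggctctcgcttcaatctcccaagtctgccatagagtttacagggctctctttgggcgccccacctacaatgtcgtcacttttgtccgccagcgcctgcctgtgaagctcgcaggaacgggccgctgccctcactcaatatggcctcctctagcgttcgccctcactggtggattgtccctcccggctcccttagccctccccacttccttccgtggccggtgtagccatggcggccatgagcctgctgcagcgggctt
Cox5b, chr1:36691237-36691536, plus strand: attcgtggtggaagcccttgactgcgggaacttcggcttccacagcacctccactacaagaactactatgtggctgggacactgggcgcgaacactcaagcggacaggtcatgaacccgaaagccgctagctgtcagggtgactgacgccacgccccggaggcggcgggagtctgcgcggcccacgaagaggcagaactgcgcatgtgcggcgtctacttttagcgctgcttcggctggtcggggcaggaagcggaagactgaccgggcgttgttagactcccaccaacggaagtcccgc
Atp5g1, chr11:96075582-96075881, minus strand: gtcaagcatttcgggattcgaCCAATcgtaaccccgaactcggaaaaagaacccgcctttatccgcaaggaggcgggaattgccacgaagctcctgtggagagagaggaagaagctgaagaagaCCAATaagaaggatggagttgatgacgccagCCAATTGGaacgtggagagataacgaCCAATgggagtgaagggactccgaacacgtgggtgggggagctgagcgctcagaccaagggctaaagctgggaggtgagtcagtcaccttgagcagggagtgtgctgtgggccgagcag
The third set is the 2 strongest members with an NRF1 motif, Ndufa6, an accessory subunit of complex I, and Atp5h, a subunit of the stalk of ATP synthase.
Ndufa6, chr15:82354242-82354541, minus strand: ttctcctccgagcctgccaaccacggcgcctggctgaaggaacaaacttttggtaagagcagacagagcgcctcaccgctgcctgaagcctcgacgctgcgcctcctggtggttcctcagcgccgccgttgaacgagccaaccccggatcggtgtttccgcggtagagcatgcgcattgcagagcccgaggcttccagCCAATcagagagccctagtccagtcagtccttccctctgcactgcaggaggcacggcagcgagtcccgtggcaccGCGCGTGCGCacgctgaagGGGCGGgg
Atp5h, chr11:115419870-115420169, minus strand: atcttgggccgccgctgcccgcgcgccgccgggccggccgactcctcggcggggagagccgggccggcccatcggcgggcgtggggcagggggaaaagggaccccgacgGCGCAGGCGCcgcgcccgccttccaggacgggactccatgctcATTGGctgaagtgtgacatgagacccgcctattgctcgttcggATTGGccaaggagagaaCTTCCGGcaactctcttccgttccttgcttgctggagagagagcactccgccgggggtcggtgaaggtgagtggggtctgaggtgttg

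Of the 68 promoters, 14 (20.6%) held the NRF1 motif, 15 (22.1%) ETS and 11 (16.2%) YY1, and 35 (51.5%) held at least 1 of these. Over 17492 protein-coding promoters of the same length the shares were 6.81% for NRF1, 12.3% for ETS, 6.37% for YY1 and 22.8% for any of them. Among promoters with at least 100 insertions at the start, 14 of 56 members and 15.0% of 6836 protein-coding genes held NRF1, 23.2% and 23.6% ETS, 14.3% and 8.70% YY1, and 53.6% and 41.2% any of these. Among such open promoters the members' share was the higher one for NRF1 and YY1 and nearly equal for ETS. These differences were not tested. The SP motif went the other way, in 41.1% of the 56 open members and 74.0% of all open promoters, and in 38.2% of the 68 members and 47.7% of all promoters. CCAAT was found in 37.5% and 41.9% of the open promoters, and in 41.2% of the 68 members and 38.9% of all. TATAAA was found in 8.93% and 5.21% of the open promoters, and in 11.8% and 13.0% of all, so for CCAAT and TATAAA the direction depends on which promoters are compared. GC content had a median of 58.8% in the 56 members with at least 100 insertions at the start and 63.0% in all such promoters. Without this minimum the medians were nearly equal, 57.2% in the 68 members and 57.0% in all 17492 promoters.

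**Figure D1:**
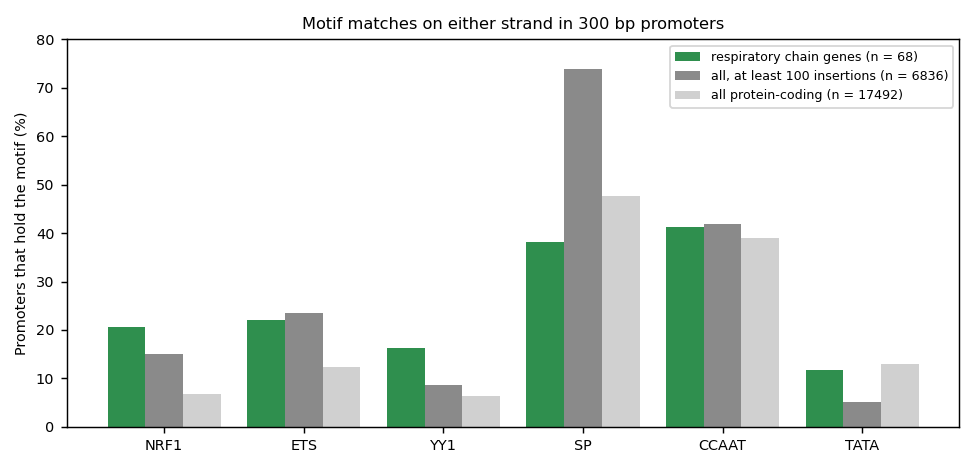
Share of 300 bp promoters (y axis, %) that hold each of 6 motifs on either strand (x axis), for the respiratory chain genes with a promoter in the table (n = 68), all protein-coding promoters with at least 100 insertions (n = 6836) and all protein-coding promoters (n = 17492). NRF1 stands at 20.6%, 15.0% and 6.81%, and SP at 38.2%, 74.0% and 47.7%.

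By complex, NRF1 motifs stood in 7 of 35 complex I promoters, 1 of 5 of complex III, 1 of 13 of complex IV and 5 of 15 of complex V. ETS motifs were found in 6 of 15 promoters of complex V (Atp5e, Atp5k, Atp5l, Atp5h, Atp5j and Atp5md), 2 of 5 of complex III, 3 of 13 of complex IV and 4 of 35 of complex I. The 14 promoters with an NRF1 motif held 77 to 138 wild-type insertions (median 100) and 69 to 133 knockout insertions (median 93.5). The 54 without it ran from 0 to 239 (median 94) and from 0 to 217 (median 78), so the ranges overlapped, and neither the lowest nor the highest promoters held the motif.

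The YY1 motif lay mostly in 1 place. Of the 11 members that held it, 8 (72.7%) had it centred 20 to 50 bases downstream of the annotated start, against 23.5% of all protein-coding promoters that held it and 29.2% of the open ones. This range was chosen after the positions were seen. Of the 8 genes, 7 encode complex I subunits, and complex I makes up 35 of the 68 promoters. The motif at any position was found in 7 of 35 promoters of complex I and 3 of 15 of complex V, the same share. Their 30 bases from 16 to 45 downstream of the start are set under each other, with the motif in capitals.
Ndufc1, chr3:51408910-51408939, minus strand: cggaacAAGATGGcgccgtccgtagtgctg
Ndufa3, chr7:3617389-3617418, plus strand: aagaacAAGATGGccgggagtaagtacagg
Atp5j2, chr5:145191496-145191525, minus strand: ggacttcAAGATGGcgtcactcggtgagta
Ndufs7, chr10:80249465-80249494, plus strand: ccgaggccAAGATGGcggcgctggcgggtg
Ndufa9, chr6:126849099-126849128, minus strand: ggcattgtgggagAAGATGGcggccgccgt
Ndufs6, chr13:73328437-73328466, minus strand: ggtcaagggtcaccggcAAGATGGcggcgg
Ndufs4, chr13:114388049-114388078, minus strand: cctggcgtttgcctacaggAAGATGGcggc
Ndufb8, chr19:44555397-44555426, minus strand: agagtgaaccgcggagaaggtgAAGATGGc
All 8 matches lay on the strand of the gene. The motif includes ATG, the letters of a start codon, and whether these matches overlap the start of the coding sequence was not examined. In the other 3 promoters with the motif, those of Cox7c, Atp5pb and Atp5j, it was centred at 1, 1 and -85 bases from the start. The 11 promoters with the motif held medians of 70 wild-type and 68 knockout insertions, and the 57 without it 99 and 95.

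Most respiratory chain promoters were open, by regions called on both libraries summed. Promoter insertions were counted within 500 bp of the end of each gene that held more of them, and since all windows are equally long, counts compare between genes. The median member held 84.5 insertions in the wild-type library and 81.5 in the knockout library, and the median of all 21887 protein-coding genes was 13 in each. Of the 84 members 72 (85.7%) had an open region in this window, against 50.6% of all genes, and 74 held at least 20 insertions summed over both libraries, 61 of them at least 100. Other housekeeping sets were at similar levels, with medians of 93 and 85 over 80 cytosolic ribosomal protein genes and 75 and 70.5 over 40 proteasome subunit genes. Where a member promoter was open, the open region had a median width of 750 bp, and 800 bp over all genes.

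**Figure D2:**
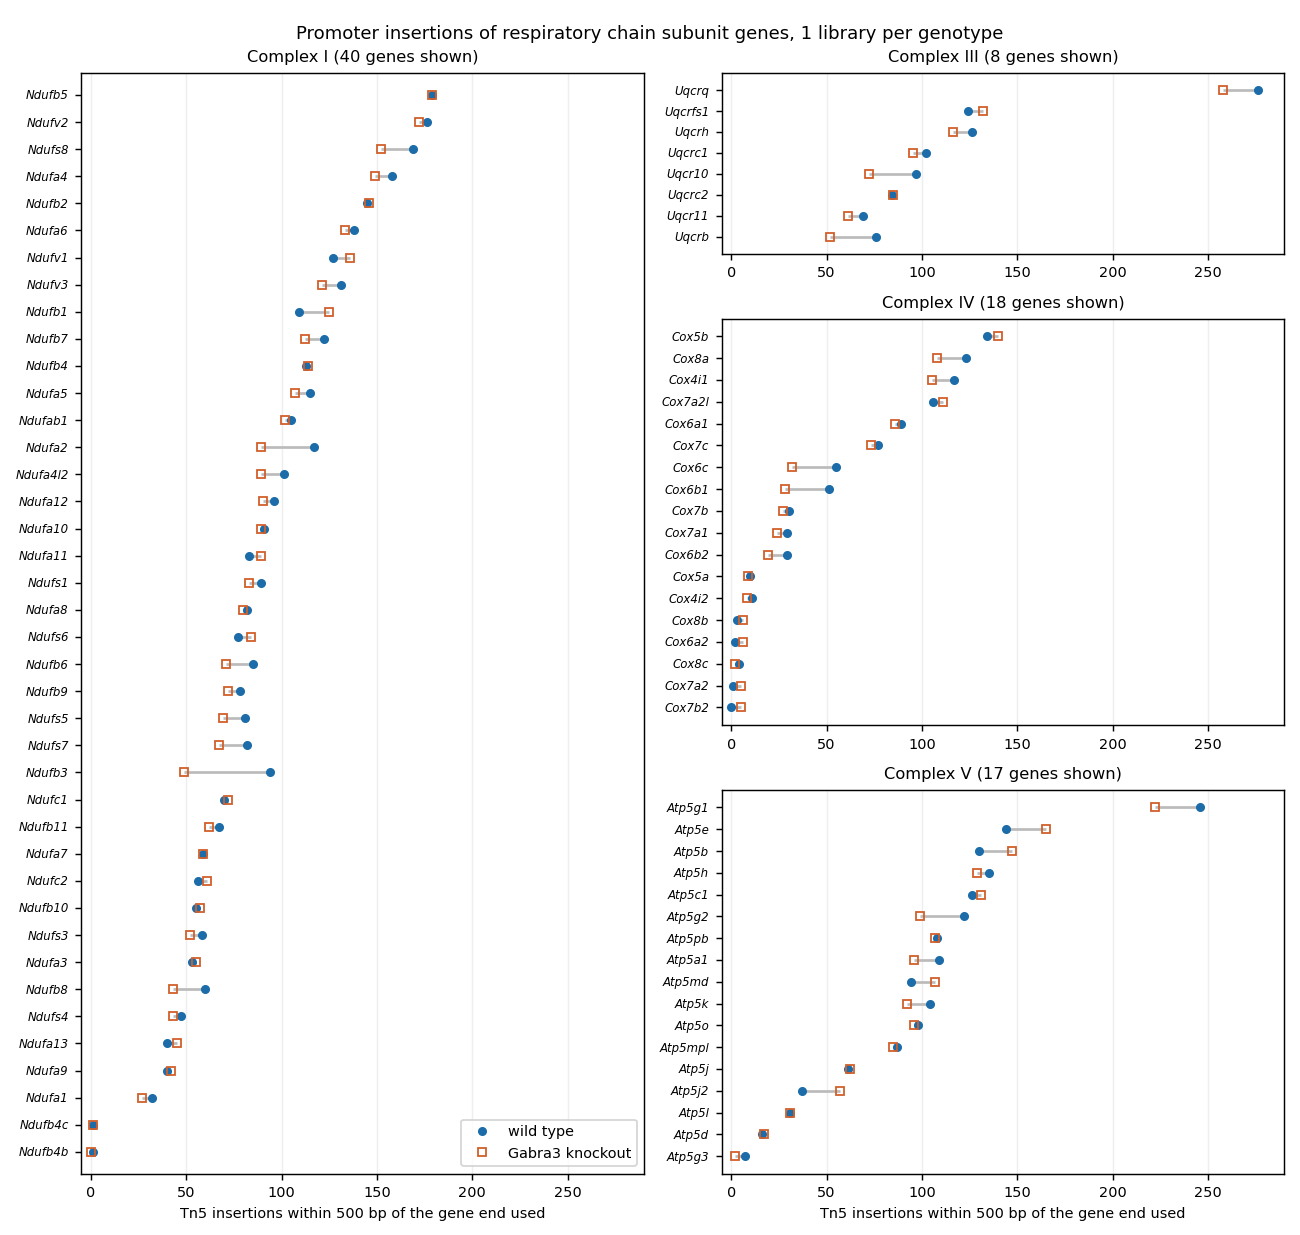
Tn5 insertions (x axis) within 500 bp of the gene end used, for 83 of the 84 genes (y axis, ordered by the sum) in 4 panels by complex, with the wild-type library as filled circles and the Gabra3 knockout library as open squares. Uqcrq (276 and 258) and Atp5g1 (246 and 222) stand highest, the libraries lie close for most genes, and Ndufb3 has the widest gap (94 and 49).

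In complex I the core genes of electron transfer ranged widely. Ndufv2 and Ndufs8, both iron-sulfur subunits, held 176 and 169 wild-type and 172 and 152 knockout insertions. Ndufv1, the NADH-binding subunit, held 127 and 136, Ndufs1 89 and 83, Ndufs7 82 and 67, and Ndufs3 58 and 52. The first-ranked promoter of the complex was that of an accessory subunit, Ndufb5, with 179 in both libraries, in a window it shared with Mrpl47, a mitochondrial ribosomal protein gene.

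The accessory subunits of complex I held from 0 to 179 insertions per library. Ndufa4, first described in complex I and now counted with complex IV, held 158 and 149, Ndufb2 145 and 146, and Ndufab1, the mitochondrial acyl carrier protein, 105 and 102. Ndufa4l2, a paralogue known for its induction in low oxygen, held 101 and 89 at a gene end shared with Stac3, and a further open region inside the gene held 64 and 53. Of the Ndufb4 copies, Ndufb4 held 113 and 114, Ndufb4b 1 and 0, and Ndufb4c 1 and 1. A count of 0 allows up to 3 insertions.

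All 8 genes of complex III had an open region, with at least 128 insertions summed, and at least 69 in the wild-type and 52 in the knockout library. Uqcrq, a small subunit, had the most of all 84 members with 276 and 258, in a window shared with Gdf9, a growth factor gene of the oocyte. Uqcrfs1, the Rieske iron-sulfur protein, held 124 and 132, Uqcrh, the hinge protein, 126 and 116, and the core proteins Uqcrc1 and Uqcrc2 102 and 95, and 84 and 85. Uqcr10 held 97 and 72, Uqcr11 69 and 61, and Uqcrb 76 and 52.

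ATP synthase genes had the highest median, 104 and 96. The catalytic beta subunit Atp5b held 130 and 147, the alpha subunit Atp5a1 109 and 96, the gamma subunit Atp5c1 126 and 131, and the epsilon subunit Atp5e 144 and 165. The c ring subunit, 1 mature protein, comes from 3 genes, and all were open at their starts: Atp5g1 held 239 and 217 there, Atp5g2 122 and 99, and Atp5g3 78 and 89. Atp5l, of the membrane part, held the fewest insertions among the ATP synthase starts, 31 and 31.

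Complex IV was split between open and nearly closed promoters, with medians of 29.5 (wild type) and 25.5 (knockout), an open region at 11 of 18 genes and 100 or more insertions summed at 6. With RefSeq starts in place of gene ends where the table has one, the medians were 53 and 30, and 8 of 18 genes reached 100. The 6 at gene ends were Cox5b (134 and 140), Cox8a (123 and 108), Cox4i1 (117 and 105, in a window shared with Emc8), Cox7a2l, a factor of supercomplex assembly (106 and 111), Cox6a1 (89 and 86) and Cox7c (77 and 73).

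The isoform genes accounted for most of the low promoters. Cox4i1, the common isoform, held 11.7 times as many insertions (7.31 to 19.8) as the lung isoform Cox4i2 (11 and 8). Cox6a1 held 21.9 times as many (10.9 to 51.5) as the heart and muscle isoform Cox6a2 (2 and 6). Cox8a held 25.7 times as many (13.3 to 56.8) as Cox8b (3 and 6) and 38.5 times as many (17.4 to 106.0) as Cox8c, the testis isoform (4 and 2). Cox7b, with 30 and 27, held 11.4 times as many (4.61 to 36.4) as Cox7b2 (0 and 5). In these 5 comparisons the common isoform was the higher one in each library.

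Other isoform pairs were less far apart. Cox6b1 held 51 and 28 and its testis isoform Cox6b2 29 and 19, a ratio of 1.65 (1.14 to 2.41), and both had an open region. The Cox6b2 window also holds an end of Fam71e2. Cox7a1, the heart and muscle isoform, had an open region with 29 and 24. Its partner Cox7a2 held 1 and 5 at the gene end used, but 99 and 71 at its RefSeq start, 11.6 kb away. The ratio of Cox7a2 to Cox7a1 was therefore 0.113 (0.0398 to 0.263) at the gene ends and 3.21 (2.34 to 4.45) at the starts, and the direction turned with the window.

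Markers of muscle and testis were low at most genes, and lung markers were not examined. The 9 muscle markers held medians of 6 and 6 insertions at gene ends and 126 and 107 in all, of which Ckm, muscle creatine kinase, gave 85 and 66 at a gene end and 8 and 7 at its RefSeq start. Only Ckm and Tnnt3 (8 and 14) among the 9 reached 20 summed. The 6 testis germ cell markers held 26 and 29 in all, and none reached 20. No marker of either list was at 0 in both libraries. The part of such cells in the counts was not tested.

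**Figure D3:**
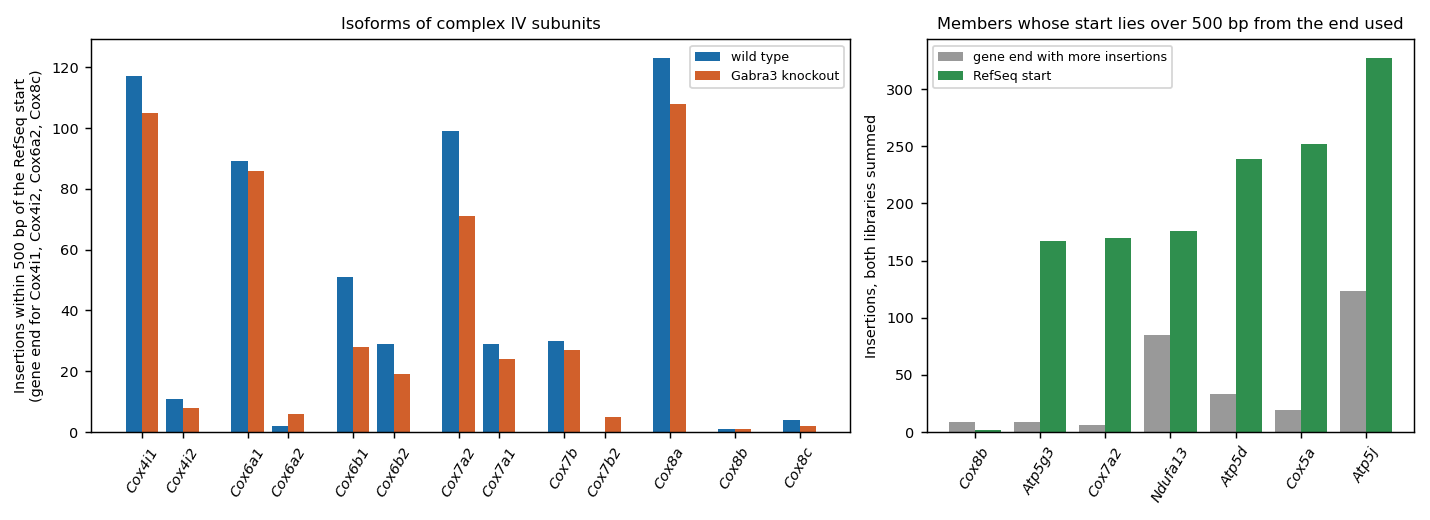
Insertions within 500 bp of the RefSeq start (y axis; of the gene end for Cox4i1, Cox4i2, Cox6a2 and Cox8c) of 13 isoform genes of complex IV (x axis), with a bar for each library (left), and insertions summed over both libraries (y axis) at the gene end used and at the RefSeq start for the 7 members whose start lies over 500 bp from that end. Cox7a2 stands at 6 and 170 and Atp5j at 123 and 327, and Cox8b (9 and 2) is the one gene with fewer at the start.

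The gene end was not always the start of transcription. Of the 68 members with an annotated start, 61 had it within 500 bp of the end used and 55 exactly there. For the other 7, Cox7a2, Cox5a, Atp5d, Atp5g3, Cox8b, Atp5j and Ndufa13, the start lay 0.538 to 11.6 kb away, and 6 of these starts held more insertions than the end. Cox5a held 10 and 9 at the end and 130 and 122 at the start, Atp5g3 7 and 2 against 78 and 89, Atp5d 16 and 17 against 132 and 107, and Ndufa13 40 and 45 against 93 and 83. Cox8b was the exception, with 3 and 6 at an end shared with Psmd13 and 1 and 1 at its start. So of the 10 members under 20 insertions, Cox7a2, Cox5a and Atp5g3 held at least 100 at their starts. The other 7 (Ndufb4b, Ndufb4c, Cox4i2, Cox6a2, Cox7b2, Cox8b and Cox8c) were isoform genes or copies. Of these, Ndufb4b, Cox7b2 and Cox8b stayed under 20 at a start in the table, and the others had no start there. Of the 68 members with a start in the table, 56 reached 100 insertions there.

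Shared windows were common. In 31 of the 84 members the window also held an end of another protein-coding gene, so its insertions cannot be assigned to either gene. Partners included the mitochondrial ribosomal protein genes Mrpl47 (with Ndufb5) and Mrpl36 (with Ndufs6) and the cytosolic ribosomal protein gene Rps28 (with Ndufa7). Atp5j, coupling factor 6 of ATP synthase, had its start 881 bp from the end used, with 182 and 145 insertions there, and its strongest window lay within 500 bp of an end of Gabpa, the gene of the DNA-binding subunit of GABP. The members that shared a window held medians of 94 and 89 insertions, and those that did not 81 and 71. Among members with at least 20 insertions the medians were 97 and 89, and 87 and 85.

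The 3 X-linked members were on the low side. Ndufa1 held 32 and 27 insertions, Cox7b 30 and 27, and Ndufb11 67 and 62, in a window shared with Rbm10. Among all promoters with at least 20 insertions, the median summed count was 81.5 on the X chromosome and 145 on the other chromosomes, so the X chromosome as a whole was lower.

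Insertions were centred on the annotated start in both libraries. Averaged over the 56 members with at least 100 insertions at the start, the highest 50 bp bin held 13.2 wild-type insertions per gene, from 0 to 50 bp downstream, and 12.2 knockout insertions, from 50 bp upstream to the start. The mean of the outermost bins on both sides, 950 to 1000 bp away, was 0.580 and 0.527, so the peaks were 22.7 and 23.2 times as high. Over all 6836 such promoters the peaks were 12.9 and 12.3 and the outermost bins 0.686 and 0.685. Within 500 bp, 58.8% of wild-type and 58.8% of knockout insertions lay upstream of the start. A smaller maximum lay 200 to 250 bp downstream, with 4.84 and 5.32 insertions per gene. The lowest bin before it was the one at 150 to 200 bp in the wild-type library (3.54) and at 100 to 150 bp in the knockout library (3.66). All open promoters also had a maximum at 200 to 250 bp, with 5.18 and 5.46 after 4.81 and 4.87 in the bin before, and their main peak lay 50 to 100 bp upstream of the start in both libraries.

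**Figure D4:**
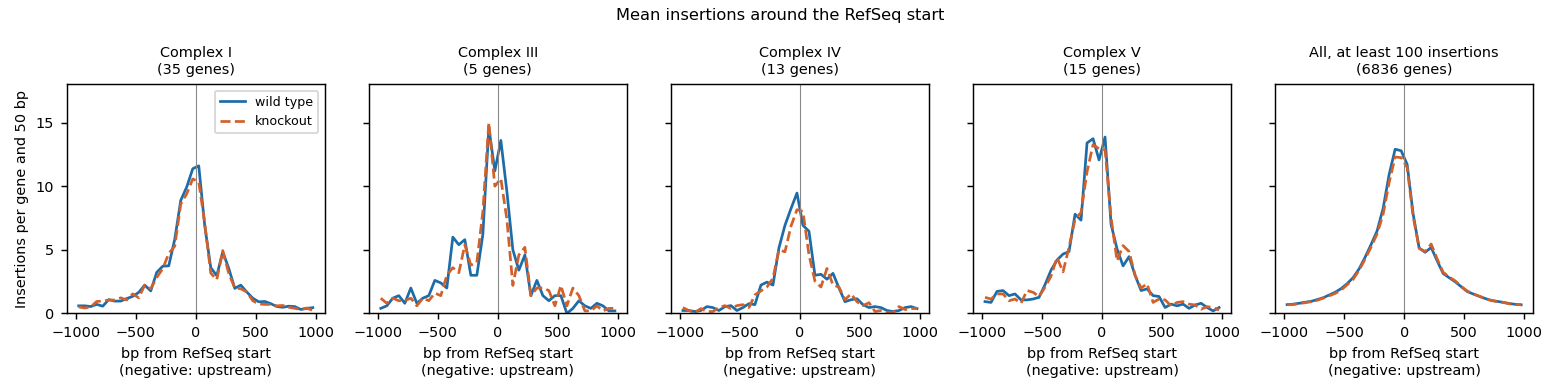
Mean insertions per gene in 50 bp bins (y axis) by distance from the RefSeq start in bp (x axis, negative upstream), with the wild-type library as a solid and the knockout library as a dashed line, for the genes of each complex with a start in the table and for all protein-coding genes with at least 100 insertions. Each panel peaks near the start, and complex IV, which holds the low isoform genes, has the lowest peak (9.46 and 8.15).

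Open regions away from all gene ends were counted inside the members, with no count over all genes beside them. In all 12 lay inside a member and over 1000 bp from every gene end, in 10 genes, and 3 of them were the RefSeq starts of Cox5a, Cox7a2 and Atp5d. Of the others, the one inside Ndufa4l2 held 64 and 53 insertions and the one inside Ndufab1 24 and 16.

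Between the genotypes the summed respiratory chain promoters differed little, and whether the interval included 0 depended on the scaling. All ratios divide the knockout count by the wild-type count, each plus 0.5, on a log2 scale and after scaling to the autosomal insertions in open regions. The 84 members together held 7075 insertions in the wild-type and 6712 in the knockout library, which is -0.017 (-0.065 to 0.031) on this scale and -0.078 (-0.13 to -0.030) when scaled to all autosomal insertions. The sum over all 21887 protein-coding genes gave 0.022 (0.018 to 0.026) on this scale. Scaling to all autosomal insertions lowers every log2 ratio by 0.06, so the interval over all genes then lay below 0 as well. Among the 74 members with at least 20 insertions the median was -0.012, beside 0.022 over all 11893 such promoters, and 38 of 74 lay below 0 (51.4%, against 46.4% of all). Among the 61 members with at least 100 insertions the interval lay within 2-fold for 58 and within 1.5-fold for 38. Over all 7509 such promoters these numbers were 7356 and 4612, a similar share.

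By complex, the intervals included 0 in this scaling. Complex I gave 3595 and 3402 insertions (-0.02, -0.09 to 0.05), complex III 954 and 871 (-0.07, -0.21 to 0.06), complex IV 871 and 794 (-0.07, -0.22 to 0.07), and complex V 1655 and 1645 (0.05, -0.05 to 0.15). At RefSeq starts, where the windows of Cox5a and Cox7a2 hold their promoters, complex IV gave 1087 and 968 (-0.11, -0.23 to 0.02) and complex V 1956 and 1900 (0.02, -0.07 to 0.11). An interval left 0 under 3 alternatives: complex I scaled to all autosomal insertions (-0.082, -0.15 to -0.014), complex III on plus-strand reads (-0.20, -0.39 to -0.0099) and complex V with all reads kept (0.11, 0.020 to 0.19). The first of these scalings also takes the sum over all protein-coding genes below 0. Below 0 lay 8 of 11 measured complex IV genes, 6 of 8 of complex III, 19 of 39 of complex I and 5 of 16 of complex V. The differences between complexes were not tested.

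Few members differed by 1.5-fold. With at least 20 insertions, 3 of 74 were 1.5-fold or more lower in the knockout library (4.05%), where 3.31% of all promoters were, and 1 was higher (1.35%), where 4.07% of all were. With at least 100 insertions, 1 of 61 was lower (1.64%), where 0.226% of all were, and 0 were higher, where 0.519% of all were. At 2-fold the members numbered 0 in both directions at either minimum. Among all promoters with at least 20 insertions, 0.622% were 2-fold lower and 0.925% higher, and with at least 100 the shares were 0% and 0%. A single gene makes up the 1 of 61, so this share rests on that gene. Over all promoters with at least 20 insertions the balance was 394 lower and 484 higher, and it became 488 lower and 383 higher when scaled to all autosomal insertions, which lowers every log2 ratio by 0.06.

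**Figure D5:**
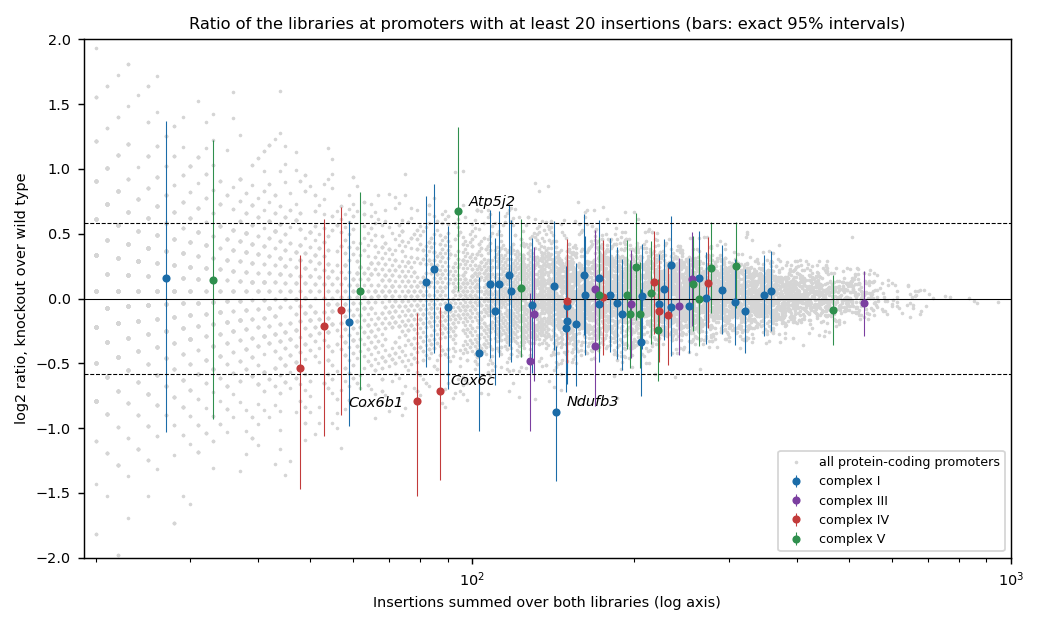
Log2 ratio, knockout to wild type (y axis) against insertions summed over both libraries (x axis, log scale) for promoters with at least 20 insertions, with all protein-coding promoters as grey points and the members coloured by complex with exact 95% intervals. Dashed lines mark 1.5-fold, and the 4 members past them are named, of which Ndufb3 (-0.87) alone holds over 100 insertions.

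Ndufb3, an accessory subunit of complex I, was the one with over 100 insertions. Its window held 94 insertions in the wild type against 49 in the knockout (log2 ratio -0.87, -1.41 to -0.37). The knockout count was the lower one in each of 5 stretches of about 200 bp across the window, with 8 and 2, 18 and 13, 32 and 12, 24 and 16, and 12 and 6. The stretches, and the strands given next, are parts of the count for which Ndufb3 was named. They are therefore no separate check of its ratio. Reads of the plus strand gave 51 and 18 (-1.42, -2.31 to -0.64) and those of the minus strand 43 and 31 (-0.41, -1.13 to 0.29), so the difference was in the same direction on both strands and its size rested mostly on the plus strand. The window also holds an end of Fam126b, and the ratio cannot be assigned to either gene.

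Cox6b1 and Cox6c, both complex IV subunits, were the other low ones. Cox6b1 held 51 and 28 (-0.79, -1.53 to -0.11), and with a mapping quality of at least 30 the interval reached 0 (-0.64, -1.39 to 0.06). The strands of Cox6b1 gave 31 and 12 (plus, -1.28, -2.41 to -0.31) and 20 and 16 (minus, -0.25, -1.31 to 0.76). Cox6c held 55 and 32 (-0.71, -1.40 to -0.07), and with windows of 1000 bp either side -0.41 (-0.97 to 0.14). Atp5j2, the f subunit of the membrane part of ATP synthase, was the high one with 37 and 57 (0.68, 0.06 to 1.32). Scaled to all autosomal insertions its interval reached 0 (0.61, -0.0010 to 1.26), and the strands gave 1.03 (plus, 0.084 to 2.10) and 0.39 (minus, -0.45 to 1.25). Its central 200 bp held 15 and 29, and the stretches of 200 bp at either side 13 and 11, and 4 and 10. Cox6c and Atp5j2 were named after their values were seen.

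The interval lay below 0 for 3 of 74 members with at least 20 insertions (4.05%) and above 0 for 1 (1.35%). Over all such promoters the shares were 1.28% and 1.88%, and the difference between the shares was not tested. Other differences had intervals that included 0 in this scaling. Uqcrb held 76 and 52 (-0.48, -1.03 to 0.04; -0.55, -1.09 to -0.022 when scaled to all autosomal insertions), Ndufb8 60 and 43 (-0.42), Cox7a2 at its start 99 and 71 (-0.42, -0.88 to 0.03), Uqcr10 97 and 72 (-0.37) and Cox6b2 29 and 19 (-0.54, -1.47 to 0.33). On the other side, Ndufb1 held 109 and 125 (0.26, -0.13 to 0.64), Atp5e 144 and 165 (0.25, -0.08 to 0.59), Uqcrfs1 124 and 132 (0.15) and Cox7a2l 106 and 111 (0.13). For Atp5e the strands gave opposite signs, -0.10 on the plus and 0.64 on the minus strand.

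Other genes of the pathway were counted in the same way. Among all promoters with at least 20 insertions, 3.31% were 1.5-fold or more lower and 4.07% higher. The counts past 1.5-fold in the short lists below were not tested against these shares and are not read as results. The 4 genes of complex II, which oxidises succinate, held 438 and 413 insertions (-0.03, -0.22 to 0.17), with Sdhb at 182 and 149 and Sdhc at 56 and 68, and 0 of 4 past 1.5-fold. Of 7 further subunit and carrier genes 6 had at least 20 insertions and 0 were past 1.5-fold. Cycs, cytochrome c of body tissues, held 186 and 220 (0.30, 0.01 to 0.59), Cyc1, the cytochrome c1 of complex III, 77 and 75, and Cyct, the testis cytochrome c, 4 and 6. Scaling to all autosomal insertions lowers each log2 ratio by 0.06, so the Cycs interval then includes 0. Of 45 assembly factor genes 44 had at least 20 insertions, 0 were past 1.5-fold, and their sum gave 4275 and 4172 (0.02, -0.04 to 0.09).

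Of 15 regulators of mitochondrial biogenesis 13 had at least 20 insertions and 1 was past 1.5-fold, where 3.31% of all promoters were lower and 4.07% higher. That was Twnk, the mitochondrial DNA helicase, at 13 and 8 (-0.61, -2.12 to 0.74), which held 79 and 76 at its RefSeq start. The genes of the factors whose motifs were searched were open: Nrf1 held 188 and 169, Gabpa 176 and 138 (-0.29, -0.62 to 0.04) and Yy1 235 and 187 (-0.27, -0.56 to 0.01). The 15 regulators together gave 1684 and 1541 (-0.07, -0.17 to 0.03).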

How the data were processed

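ATAC-seq insertions were counted in 2 libraries, 1 per genotype. Each deposited file lists 1 aligned read of 75 bp per line. Per the submitters' processing notes, the tools were Trimmomatic 0.33, BWA and bedtools 2.23.0, and the build was GRCm38 (mm10). The BWA version, each tool's role and any duplicate filter are not stated there. The deposited score column is the mapping quality, not normalized, and the deposited coordinate columns give read starts and ends.

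Reads with mapping quality of at least 10 were reduced to 5′ ends, shifted by 4 bp (plus strand) or -5 bp (minus strand), and counted once per position and strand. Open regions were called on both libraries summed: 200 bp windows in 50 bp steps whose Poisson p fell below 1e-05, taking as background the genome mean or the surrounding 10000 bp, whichever was higher, merged within 150 bp, which gave 36840. Promoters and RefSeq starts were windows of 500 bp either side. Sequences and starts come from RefSeq (GRCm38.p6), and where a gene had several starts the one with most insertions was used. The ratio script was checked on simulated data. Python 3.11.15, numpy 2.4.6, pandas 2.3.3 and scipy 1.17.1 were used.

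The members, the lists and the motifs were chosen with earlier results of these data known. Named genes are, per complex, the 2 members with most and the 2 with fewest insertions, the highest and lowest ratio with at least 100 insertions, members past 1.5-fold with at least 100, isoform pairs and members under 20. Others were named for their role or after their values were seen. The values of 1 member are not reported here, though it is in all counts and sums. Alternatives changed the scaling, window, repeats, mapping quality, minimum, strand, pseudocount, shared windows, start and region threshold. The use of RefSeq starts for ratios and open regions was added after seeing the data.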

Additional observations from a re-analysis of the deposited data

How the results depend on the processing

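Over 45 results, 187 alternative values of the main results stayed within their interval or within 1.5 times the count, 19 moved and 1 reversed. Of those for single genes, 186 stayed and 3 moved (Ndufb3 on the plus strand, Atp5e on each strand). Scaling to all autosomal insertions, which lowers the ratio of every gene alike, moved the summed log2 ratio of all members to -0.078 (-0.13 to -0.030) and their median to -0.073. With no minimum count, 6 members were 1.5-fold lower and 5 higher, and 2 were 2-fold lower and 3 higher. The members this added all held under 20 insertions. Shares over all promoters were not computed without a minimum, nor for the strand, repeat, window and shared-window settings that follow. These counts are therefore not read as results about the members. Plus-strand reads alone gave 2 members 2-fold lower and 1 higher. Among members with at least 100 insertions, the 1.5-fold lower count became 2 with all reads kept. It was 0 on either strand alone and without members that share a window, but Ndufb3 could not be counted in either. Its 51 and 18 plus-strand and 43 and 31 minus-strand insertions were under the minimum of 100 on each strand, and it shares its window. These counts of 0 are therefore no check of its ratio. The 1.5-fold higher count there became 1 with windows of 1000 bp, with all reads kept and with minus-strand reads. Why the higher count changed was not tested. Cox4i1 over Cox4i2 was 6.28 with windows of 1000 bp. Windows of 250 bp gave 3.55 for Cox6b1 over Cox6b2 and 48.0 for Cox7b over Cox7b2. At RefSeq starts Cox7a2 over Cox7a1 turned to 3.21 and Cox8a over Cox8b became 115.5, from 2 insertions at Cox8b (31.6 to 959). No member window overlapped another, so counting each insertion once changed nothing. At gene ends, no ratio between genotypes is given for members under 20 insertions. No paired analysis was possible because each genotype has 1 library. Depth limits single promoters: at 143 insertions the Ndufb3 interval still spanned -1.41 to -0.37.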
